A study of Mus musculus with 18 samples.

Results

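The interferon response genes described here are Stat2, Irf1, Irf7, Irf9, Isg15, Ifit1, Ifit2, Ifit3 and Cxcl10. They were taken from a table of FPKM (fragment counts scaled to transcript length and to library size) by their gene symbols, which gave 9 of the 36655 symbols in the table, with values in all 18 libraries. The libraries came from C57BL/6 mice derived wholly from induced pluripotent stem cells. Every animal, controls included, carried the reprogramming factors Klf4, Sox2, c-Myc and Oct4 (the last encoded by Pou5f1) under doxycycline control. The study asked how gene expression changes when blood-forming cells and fibroblasts begin to be reprogrammed.

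Long-term and short-term haematopoietic stem cells, called LT-HSC and ST-HSC here, and myeloid progenitors, called MP, each gave 1 library in each of 5 states. D libraries came from cells cultured with doxycycline for 2 or 4 days (2D and 4D). N libraries came from cells cultured for the same times without it (2N and 4N). Uncultured cells were sampled at day 0. Fibroblasts gave 1 library each at 2D, 4D and 0. For the 6 N libraries the labels' doxycycline entry is yes, which goes against their titles and the series design. The titles are followed here. No condition had a replicate library, so the p-values rest on the scatter among cell types and days, and the order of 2 single libraries cannot be set against a replicate error. Each blood library was amplified from 25 picked cells by oligo-dT priming and PCR, whereas fibroblast RNA was prepared in bulk, so cell type and library method cannot be told apart between blood cells and fibroblasts. In pools of this kind, fewer cells that express a gene and less RNA per cell cannot be told apart either.

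Interferons are secreted alarm proteins that bind receptors on the cell surface and switch on Janus kinases, which phosphorylate STAT proteins. After type I interferon, a complex that holds Stat2 and Irf9 binds the interferon-stimulated response element (ISRE) in promoters, and the response to interferon gamma runs through the gamma-activated sequence (GAS). Irf1 and Irf7 are transcription factors that are themselves induced and pass the signal on. The Ifit proteins and the ubiquitin-like protein Isg15 are antiviral effectors, and Cxcl10 is a secreted chemokine that attracts activated T cells. In bone marrow, interferon is known to drive quiescent haematopoietic stem cells into division.

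Total FPKM per library was 677649 to 767866 in blood cells and 524225 to 572069 in fibroblasts, and 10478 to 11365 genes in blood libraries and 11833 to 12425 in fibroblast libraries reached 1 FPKM. Read depth is unknown. A value of 0 can also be a failed estimate, and such a gene is called listed at 0. As a check of the labels, Sox2 was 15.6 to 61.3 FPKM in the 6 blood D libraries and 0 to 1.5 FPKM in the 6 N libraries, while Pou5f1 was at 2.34 FPKM or less in all blood libraries. Klf4 was at 3.20 to 11.2 FPKM in D, 0 to 22.6 FPKM in N and 10.7 to 240.1 FPKM in uncultured blood cells, and Myc at 45.5 to 189 FPKM in D, 102 to 319 FPKM in N and 32.4 to 125 FPKM in uncultured blood cells. Neither passed between D and N. The uncultured LT-HSC library stood apart from the other LT-HSC libraries: 5 myeloid progenitor markers (Mpo, Elane, Prtn3, Ctsg, Ms4a3) summed to 42113 FPKM in it, against 59060 FPKM in uncultured MP, 1629 FPKM in uncultured ST-HSC and 125 FPKM in LT-HSC at 2N. Its 6 stem cell markers summed to 709 FPKM, beside 555 FPKM in uncultured ST-HSC and 19.6 FPKM in uncultured MP. Where a printed test of the 9 genes used this library, its value without it is given as well. A set of 7 fibroblast genes summed to 555 to 10273 FPKM in fibroblasts and to 33.4 FPKM at most in blood libraries.

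Among the 9 genes, Cxcl10 was far lower and Irf1 was lower in cultured than in uncultured blood cells, and both were lower whether or not doxycycline was added. Cxcl10 was listed at 0 in 10 of the 12 cultured blood libraries and was at 5.90 FPKM or less in the other two, against 90.1 to 276 FPKM in the 3 uncultured ones. Irf1 was at 6.54 to 69.2 FPKM in cultured and at 88.2 to 364 FPKM in uncultured blood cells, and its smallest fall was 2.11-fold, in MP at 4N. The call for Irf1 in N against uncultured cells ended when the uncultured LT-HSC or the uncultured ST-HSC library was left out. Between D and N, 6 of the 9 genes could be tested and none passed. Cxcl10, Ifit1 and Ifit3 were too low there to test. Ifit1 and Ifit3 were listed at 0 in every blood library, and the interferon genes Ifna1, Ifna2, Ifna4, Ifnb1, Ifne, Ifnk, Ifng, Ifnl2 and Ifnl3 were listed at 0 in all 18 libraries.

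**Figure D1:**
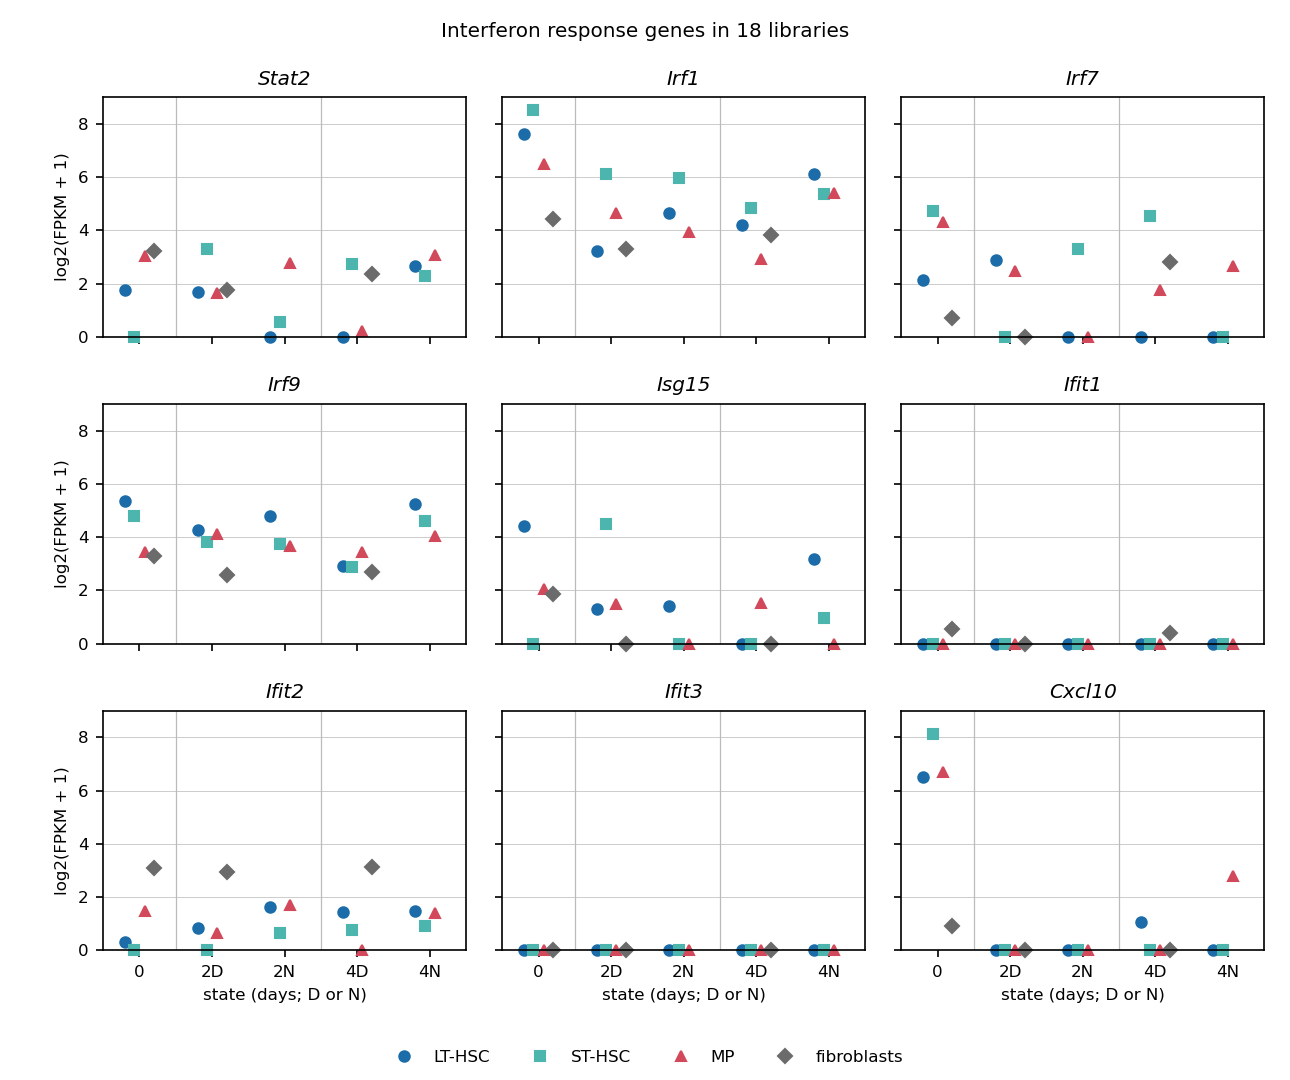
Levels of the 9 interferon response genes, as log2(FPKM + 1), in each of the 18 libraries by state (0, uncultured; 2 or 4 days, D with doxycycline, N without), with 1 point per library and symbols for cell types. Irf1 and Cxcl10 sit highest in the uncultured blood libraries, Ifit1 and Ifit3 lie at or near 0 throughout, and Ifit2 is higher in the 3 fibroblast libraries than in any blood library.

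The promoters of the genes are shown first, because the elements they hold are what the factors of this pathway recognise. Windows of 250 bases before and 50 bases after each annotated start were taken from RefSeq on build GRCm38.p6 (the expression values themselves were made on mm9), and all 9 genes had at least 1 of the 12 windows. Both strands were searched for the ISRE core GAAANNGAAA, the GAS core TTCNNNGAA and the NF-kB consensus, and no match of 1 motif overlapped a match of another. The ISRE core was found in Cxcl10, Isg15, Ifit1, Ifit3 and Stat2, and in 3.99% of the 27025 genes with a window. For Stat2 the bases checked after the start of its only window were found in no annotated transcript of the gene, so the place of its match is less certain. The GAS core was found in Irf1 and Ifit2, and in 9.55% of all genes. NF-kB matches were found in Cxcl10 and Irf1, and in 5.14% of all genes. The NF-kB motif was added after the promoter sequences had been seen. Its matches in Cxcl10 and Irf1 are therefore a description, and the share among all genes is no test of them. Irf7 and Irf9 held none of the 3 motifs. A match describes letters in these windows and not a bound site.

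The windows of Cxcl10 and Irf1 are printed because these are the genes that fell in culture. Cxcl10 (chr5:92348890-92349139, minus strand) and Irf1 (chr11:53769764-53770013, plus strand) are given over the 250 bases before the start. Capitals mark an ISRE core at -213 to -204 and NF-kB matches at -159 to -150 and -103 to -94 in Cxcl10, and a GAS core at -90 to -82 and an NF-kB match at -13 to -4 in Irf1, counted from the start.
Cxcl10: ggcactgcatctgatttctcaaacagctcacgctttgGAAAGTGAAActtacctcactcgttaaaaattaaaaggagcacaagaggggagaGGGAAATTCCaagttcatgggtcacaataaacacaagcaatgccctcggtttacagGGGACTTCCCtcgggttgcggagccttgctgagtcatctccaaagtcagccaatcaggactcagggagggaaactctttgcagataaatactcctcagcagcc
Irf1: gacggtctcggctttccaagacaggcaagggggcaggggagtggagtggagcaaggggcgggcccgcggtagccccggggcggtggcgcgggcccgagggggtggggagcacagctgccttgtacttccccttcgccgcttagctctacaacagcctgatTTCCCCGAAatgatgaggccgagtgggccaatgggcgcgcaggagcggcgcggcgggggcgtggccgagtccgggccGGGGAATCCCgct

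Isg15 (chr4:156200859-156200918, minus strand), Ifit1 (chr19:34640769-34640828, plus strand) and Ifit3 (chr19:34583359-34583428, plus strand) are shown because they carry the ISRE core more than once and were low or listed at 0 in most libraries. Capitals mark 3 overlapping cores on the sense strand at -78 to -57 of Isg15. In Ifit1 the cores at -104 to -95 and -85 to -76, and in Ifit3 those at -156 to -147 and -122 to -113, read as TTTCNNTTTC because they lie on the other strand.
Isg15: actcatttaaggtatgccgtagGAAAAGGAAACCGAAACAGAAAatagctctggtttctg
Ifit1: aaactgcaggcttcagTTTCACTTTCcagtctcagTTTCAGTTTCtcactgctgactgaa
Ifit3: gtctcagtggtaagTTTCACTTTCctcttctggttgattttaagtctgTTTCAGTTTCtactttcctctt

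Stat2 (ENSMUSG00000040033), a STAT protein that joins Irf9 after type I interferon, was low. In LT-HSC it was at 2.24 FPKM at 2D and 0 at 4D, against 0 at 2N and 5.39 FPKM at 4N, and 2.42 FPKM in uncultured cells. ST-HSC had 8.85 FPKM at 2D and 5.62 FPKM at 4D, against 0.459 FPKM at 2N and 3.85 FPKM at 4N, and 0 in uncultured cells. MP had 2.11 FPKM at 2D and 0.179 FPKM at 4D, against 5.79 FPKM at 2N and 7.47 FPKM at 4N, and 7.19 FPKM in uncultured cells. The D, N and uncultured groups overlapped, and the difference of D from N was positive in 3 pairs and negative in 3.

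Irf9 (ENSMUSG00000002325), the DNA-binding partner of Stat2, was at 6.43 FPKM or more in all 15 blood libraries. LT-HSC had 18.4 FPKM at 2D and 6.57 FPKM at 4D, against 26.5 FPKM at 2N and 36.8 FPKM at 4N, and 40.0 FPKM uncultured. ST-HSC had 12.9 FPKM at 2D and 6.43 FPKM at 4D, against 12.2 FPKM at 2N and 23.2 FPKM at 4N, and 26.9 FPKM uncultured. MP had 16.2 FPKM at 2D and 9.99 FPKM at 4D, against 11.7 FPKM at 2N and 15.4 FPKM at 4N, and 9.86 FPKM uncultured. At day 4 all 3 D libraries lay below all 3 N libraries, whereas at day 2 the D and N ranges overlapped. The share of all genes that separate in this way was not counted. The change of D against N between days did not pass for Irf9 (adjusted p = 0.910 by limma).

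Irf1 (ENSMUSG00000018899), a transcription factor that interferon gamma induces strongly, was measured in every library. LT-HSC had 8.33 FPKM at 2D and 17.4 FPKM at 4D, against 24.4 FPKM at 2N and 69.2 FPKM at 4N, and 197 FPKM uncultured. ST-HSC had 68.4 FPKM at 2D and 27.3 FPKM at 4D, against 62.0 FPKM at 2N and 40.5 FPKM at 4N, and 364 FPKM uncultured. MP had 23.9 FPKM at 2D and 6.54 FPKM at 4D, against 14.4 FPKM at 2N and 41.7 FPKM at 4N, and 88.2 FPKM uncultured. Every cultured library lay below every uncultured one. The D and N ranges overlapped at day 2, and at day 4 all 3 D libraries lay below all 3 N libraries. The shares of all genes that separate in these ways were not counted. For Irf1, too, the change of D against N between days did not pass (adjusted p = 0.914 by limma).

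Irf7 (ENSMUSG00000025498), the factor that amplifies type I interferon production, varied widely from library to library. LT-HSC had 6.48 FPKM at 2D and 0 at 4D, against 0 at both 2N and 4N, and 3.43 FPKM uncultured. ST-HSC had 0 at 2D and 22.3 FPKM at 4D, against 8.72 FPKM at 2N and 0 at 4N, and 25.2 FPKM uncultured. MP had 4.61 FPKM at 2D and 2.38 FPKM at 4D, against 0 at 2N and 5.34 FPKM at 4N, and 18.9 FPKM uncultured. Above 0 were 4 of the 6 D libraries, 2 of the 6 N libraries and all 3 uncultured libraries, with overlap between the groups.

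Isg15 (ENSMUSG00000035692), the ubiquitin-like modifier that is attached to other proteins after interferon, was highest in 2 libraries of different cell type and state. ST-HSC had 21.6 FPKM at 2D and 0 at 4D, against 0 at 2N and 0.938 FPKM at 4N, and 0 uncultured. LT-HSC had 1.47 FPKM at 2D and 0 at 4D, against 1.63 FPKM at 2N and 8.09 FPKM at 4N, and 20.4 FPKM uncultured. MP had 1.83 FPKM at 2D and 1.91 FPKM at 4D, against 0 at both 2N and 4N, and 3.11 FPKM uncultured. Thus 1 D library of ST-HSC and the uncultured LT-HSC library stood above all others, and the groups overlapped.

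The Ifit genes encode proteins that recognise foreign RNA and block its translation. Ifit1 (ENSMUSG00000034459) and Ifit3 (ENSMUSG00000074896) were listed at 0 in all 15 blood libraries, and Ifit3 in the fibroblasts as well, where Ifit1 was at 0 at 2D and 0.313 FPKM at 4D, against 0.466 FPKM uncultured. Their near copies Ifit1bl1, Ifit1bl2 and Ifit3b were at 4.00 FPKM or less in all libraries, and because reads may be split among such copies, the zeros of Ifit1 and Ifit3 are uncertain. Ifit2 (ENSMUSG00000045932) was at 0 to 2.23 FPKM in blood cells. In LT-HSC it was at 0.805 FPKM at 2D and 1.75 FPKM at 4D, against 2.10 FPKM at 2N and 1.75 FPKM at 4N, and 0.246 FPKM uncultured. ST-HSC had 0 at 2D and 0.711 FPKM at 4D, against 0.553 FPKM at 2N and 0.869 FPKM at 4N, and 0 uncultured. MP had 0.556 FPKM at 2D and 0 at 4D, against 2.23 FPKM at 2N and 1.67 FPKM at 4N, and 1.77 FPKM uncultured. The D library was lower in all 6 pairs, although in LT-HSC at day 4 the difference was far smaller than the printed precision, and the D and N ranges overlapped.

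Among the cultured blood libraries, Cxcl10 (ENSMUSG00000034855) was at 1.07 FPKM in LT-HSC at 4D and 5.90 FPKM in MP at 4N, and the other 10 listed it at 0. Uncultured LT-HSC had 90.1 FPKM, uncultured ST-HSC 276 FPKM and uncultured MP 102 FPKM. No cultured library came within the range of the uncultured ones, and the share of all genes that separate so was not counted. The MP library at 4N also had the highest sum of 6 macrophage markers (Csf1r, Adgre1, Cd68, Lyz2, Mrc1 and Fcgr1), 2204 FPKM, against 0.544 to 352 FPKM in the other blood libraries, and the part of macrophages in its Cxcl10 value was not tested.

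Tests used limma on log2(FPKM + 1) for all genes with a mean of at least 1 FPKM over the libraries of a fit, with Benjamini-Hochberg adjustment over all genes tested, a threshold of 0.05 and two-sided p-values. A difference is in log2(FPKM + 1), which understates changes of low genes, and is given with its standard error (SE).

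Culture without induction was compared with the uncultured state over 6 N and 3 uncultured blood libraries, with cell type as a block. Of 12060 genes tested, 8.89% passed, 5.8% higher and 3.08% lower in N. Of the 9 interferon response genes, 7 could be tested, and 2 of them passed, both lower in N. Cxcl10 fell by 6.64 ± 0.70 (adjusted p = 0.00122), which is 99.6-fold lower on FPKM + 1. With N at 0 in 5 of 6 libraries, Cxcl10 passed the filter only through the uncultured libraries, here and in the comparison of D. Its p-values in both comparisons therefore add no support beyond the values themselves, and the size depends on the added 1. Irf1 fell by 2.29 ± 0.43 (adjusted p = 0.0150), 4.88-fold lower. The call for Irf1 ended without the uncultured LT-HSC library (difference -2.32, adjusted p = 0.0600) or without the uncultured ST-HSC library (difference -2.01, adjusted p = 0.101). Cxcl10 stayed past the threshold without the uncultured LT-HSC library, with a difference of -6.70 and an adjusted p of 0.0103.

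Irf7 missed the threshold in this comparison, with a difference of -2.73 ± 0.80 and an adjusted p of 0.0598, and passed it only when MP at 4N was left out (adjusted p = 0.0484). Isg15 differed by -1.23 ± 0.69 (adjusted p = 0.275), Ifit2 by 0.69 ± 0.53 (adjusted p = 0.422), Irf9 by -0.19 ± 0.39 (adjusted p = 0.778) and Stat2 by 0.29 ± 0.72 (adjusted p = 0.824). Without the uncultured LT-HSC library, Irf7 differed by -3.03, Isg15 by -0.78, Ifit2 by 0.43, Irf9 by -0.12 and Stat2 by 0.65, with adjusted p from 0.124 to 0.911. With all libraries in the fit, none of these 5 genes, Irf7 included, was distinguishable from the spread between libraries at the threshold used.

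Culture with induction was compared with the same 3 uncultured libraries, so the values of the 2 comparisons are not independent. Of 12539 genes tested, 15.3% passed, 9.16% higher and 6.17% lower in D. Of 6 interferon response genes tested, Cxcl10 and Irf1 passed, again both lower. Cxcl10 fell by 6.93 ± 0.56 (adjusted p = 1.70e-04), or 122-fold on FPKM + 1, with 5 of 6 D libraries at 0. Irf1 fell by 3.22 ± 0.49 (adjusted p = 0.00359), or 9.33-fold. Without the uncultured LT-HSC library both calls held, Cxcl10 with a difference of -7.40 (adjusted p = 0.00206) and Irf1 with -2.87 (adjusted p = 0.0347). Irf7 differed by -1.78 ± 0.99 (adjusted p = 0.238), Irf9 by -0.96 ± 0.55 (adjusted p = 0.249), Isg15 by -0.68 ± 1.16 (adjusted p = 0.709) and Stat2 by -0.0025 ± 0.91 (adjusted p = 0.999). Without the uncultured LT-HSC library, Isg15 turned to 0.87 and Stat2 to 0.46, Irf7 differed by -2.32 and Irf9 by -0.56, with adjusted p from 0.291 to 0.836.

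The fall of Irf1 was present in each cell type. In LT-HSC, 2D and 4D were 23.7-fold and 11.3-fold lower than uncultured cells, and 2N and 4N were 8.09-fold and 2.85-fold lower. In ST-HSC, 2D and 4D were 5.32-fold and 13.4-fold lower, and 2N and 4N were 5.88-fold and 9.00-fold lower. In MP, 2D and 4D were 3.69-fold and 13.5-fold lower, and 2N and 4N were 6.11-fold and 2.11-fold lower. All 12 cultured libraries were below the uncultured library of their own cell type, by ratios of FPKM that ranged from 2.11 to 23.7. The LT-HSC ratios all rest on the uncultured LT-HSC library, which stood apart by its progenitor markers. In ST-HSC and MP the ratios ranged from 2.11 to 13.5.

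**Figure D2:**
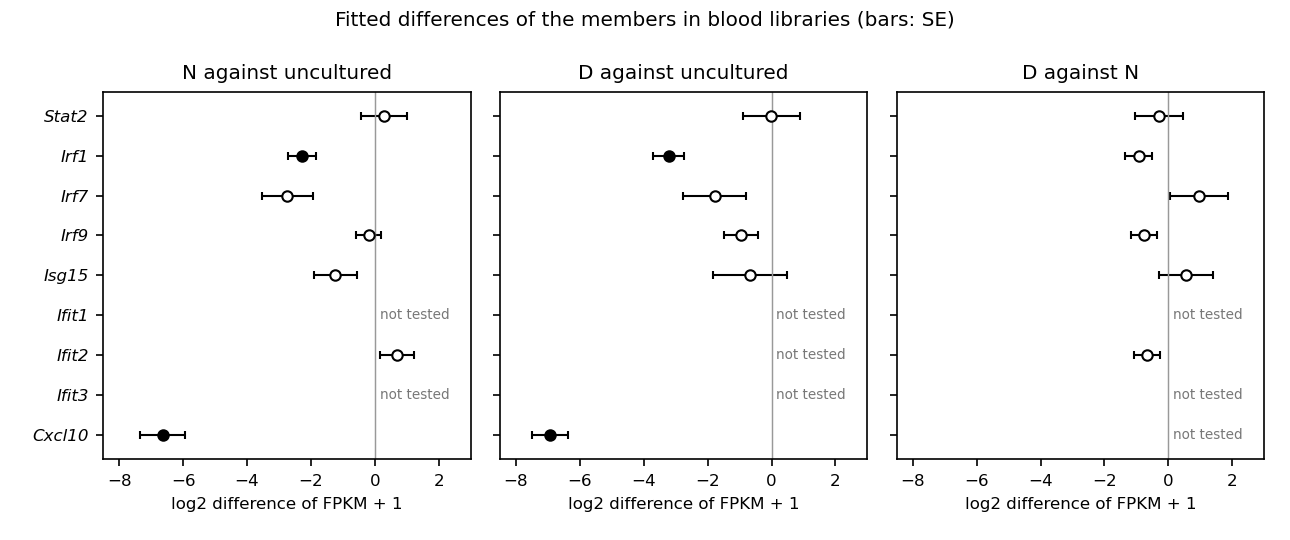
Fitted log2 differences of FPKM + 1 with their standard errors for the 9 genes in 3 comparisons over blood libraries, with filled points for adjusted p under 0.05. Cxcl10 and Irf1 are the filled points against uncultured cells, and no point is filled between D and N.

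Marker genes of other cells moved in the same comparisons. Zbtb46, a transcription factor of classical dendritic cells, was listed at 0 in all 12 cultured blood libraries, against 12 FPKM in uncultured LT-HSC, 14 FPKM in uncultured ST-HSC and 4.58 FPKM in uncultured MP. The other dendritic markers (Itgax, Xcr1, Cd209a, Siglech, Ccr9) were at 0.653 FPKM or less in the 3 uncultured libraries. In cultured blood libraries, with Zbtb46 at 0, the dendritic markers still summed to 0 to 6.32 FPKM. The sum was highest in MP at 2D (6.32 FPKM), MP at 2N (6.27 FPKM) and ST-HSC at 4N (5.33 FPKM), so the list did not fall as 1 group. Among cultured cells, the sum of 5 myeloid progenitor markers was 1.83 to 142 FPKM in D and 125 to 34774 FPKM in N, and all 5 passed the test as lower in D. Of the 6 macrophage markers, 2 passed as lower in D, and their sum was 0.544 to 74.0 FPKM in D and 115 to 2204 FPKM in N. Between N and uncultured cells, none of these 11 progenitor and macrophage markers passed. Between D and uncultured cells all 5 progenitor markers passed as lower, with a median difference of -8.82, and of 4 macrophage markers tested Lyz2 fell by 5.16 (adjusted p = 0.00697). The part of these cells in the values of the 9 genes was not tested.

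Induction itself was tested as D against N over 6 pairs of cell type and day. Of 12254 genes, 8.97% passed, 4.53% higher and 4.44% lower in D. Of the 9 genes 6 were tested, and none passed by limma, whether by adjusted p or at an unadjusted p under 0.05, where the count was also 0. Irf1 differed by -0.93 ± 0.42 (adjusted p = 0.210), lower in D in 4 of 6 pairs. Irf9 differed by -0.77 ± 0.40 (adjusted p = 0.279), lower in 4 of 6 pairs. Ifit2 differed by -0.67 ± 0.41 (adjusted p = 0.374), lower in 6 of 6 pairs. Irf7 differed by 0.96 ± 0.91 (adjusted p = 0.584), higher in 3 pairs, lower in 2 and equal in 1. Isg15 differed by 0.55 ± 0.85 (adjusted p = 0.751) and Stat2 by -0.29 ± 0.76 (adjusted p = 0.861), each higher in 3 pairs and lower in 3.

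Single pairs differed by much more than these averages. Isg15 differed by 4.5 in ST-HSC at day 2 and by -3.18 in LT-HSC at day 4. Irf7 differed by 4.54 in ST-HSC at day 4 and by -3.28 in ST-HSC at day 2. Stat2 ranged from -2.84 in MP at day 4 to 2.75 in ST-HSC at day 2. Irf7 in ST-HSC thus gave opposite signs at the 2 days, and a single pair has no test of its own. Without the ST-HSC day 2 pair the average of Isg15 turned to -0.24, and Stat2 turned to 0.19 or 0.22 without the LT-HSC or the MP pair of day 4.

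**Figure D3:**
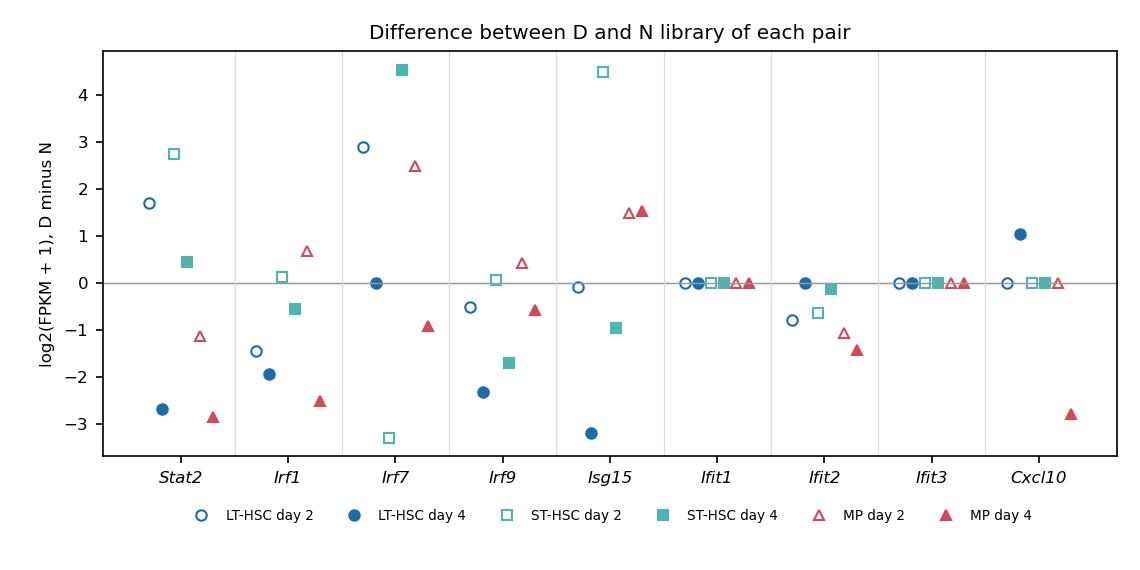
Difference of log2(FPKM + 1) between the D and the N library for each of the 9 genes, with 1 point for each of 6 pairs of cell type and day (open, day 2; filled, day 4). Ifit2 lies at or below 0 in all 6 pairs, and Irf7, Isg15 and Stat2 scatter on both sides of 0.

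Change between the 2 days was tested within N, within D, and as the difference of those changes. Of 12254 genes, 0.645% passed in N, 0.237% higher and 0.408% lower at 4N than at 2N. In D 0.906% passed, 0.367% higher and 0.539% lower at 4D than at 2D. For the difference of changes 0% passed, and limma gave 646 genes at an unadjusted p under 0.05, Irf9 and Stat2 among them. No interferon response gene passed any of the 3 tests. Irf9 had a difference of -0.97 between 4D and 2D without passing (adjusted p = 0.325 by limma). Its change between days differed between D and N by -1.53 (adjusted p = 0.910 by limma), and that of Stat2 by -2.80 (adjusted p = 0.910 by limma), both without passing.

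Differences between cell types were tested over all 15 blood libraries with state as a block. Of 12453 genes, 0.402% passed between MP and the stem cell types, 0.0562% higher and 0.345% lower in MP. Between ST-HSC and LT-HSC 0.0241% passed, 0.0161% higher and 0.00803% lower in ST-HSC, and no interferon response gene passed either test. Irf1 had a difference of -0.99 ± 0.38 between MP and stem cells (adjusted p = 0.278) and of 0.99 ± 0.44 between ST-HSC and LT-HSC (adjusted p = 0.665). These were, with the uncultured LT-HSC library left out, -0.94 (adjusted p = 0.320) and 1.09 (adjusted p = 0.701). Its uncultured level was highest in ST-HSC and lowest in MP, but neither step could be told from the spread. Whether the D to N difference of MP differs from that of the stem cells was also tested. There 0% of genes passed by limma, 1018 had an unadjusted p under 0.05, and none of those was an interferon response gene.

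Fibroblasts were described without a test. Stat2 was at 2.43 FPKM at 2D and 4.20 FPKM at 4D, against 8.26 FPKM uncultured. Irf1 was at 8.77 FPKM at 2D and 13.1 FPKM at 4D, against 20.7 FPKM uncultured, and Irf9 at 5.0 FPKM at 2D and 5.52 FPKM at 4D, against 8.76 FPKM uncultured. Both days were below the uncultured library for these 3 genes. Irf7 was at 0 at 2D and 5.95 FPKM at 4D, against 0.647 FPKM uncultured.

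Ifit2 in fibroblasts was at 6.62 FPKM at 2D and 7.74 FPKM at 4D, against 7.62 FPKM uncultured, and these values were above every blood library. Isg15 and Cxcl10 were at 0 at both induced days, whereas uncultured fibroblasts had 2.66 FPKM of Isg15 and 0.895 FPKM of Cxcl10. In the log2 of FPKM + 1, the differences from uncultured cells ranged from -1.87 for Isg15 at both days to 2.08 for Irf7 at 4D. Of 12440 genes, 3.18% were over 4-fold higher and 4.12% over 4-fold lower at both days, and none of the 5 interferon response genes with a mean of at least 1 FPKM was among them.

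The 9 genes did not vary as 1 group. Over the 15 blood libraries, Pearson's r of log2(FPKM + 1) between the 7 genes with any value ranged from -0.32 to 0.75 over 21 pairs of genes, with a median of 0.09. The highest was between Irf1 and Cxcl10, and within the 12 cultured libraries it was 0.12. When the uncultured LT-HSC library was left out, the 21 values ranged from -0.36 to 0.70, Irf1 with Cxcl10 again being the highest. These values are descriptions over libraries that share cell types and days.

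The genes most like each member over the 15 blood libraries were ranked among 12452 others. For Irf1 they were Tapbp (r = 0.915), the tapasin gene of MHC class I loading, followed by Mfsd8 (r = 0.909) and Use1 (r = 0.892), and Tapbp had r = 0.981 with Irf1 in the 12 cultured libraries alone. For Cxcl10 they were Gm12240 (r = 0.958), Fosb (r = 0.955) and Zbtb46 (r = 0.953). Gm12240 and Zbtb46 were listed at 0 in all 12 cultured libraries, in which Fosb had r = 0.26 with Cxcl10, so these likenesses rest on the 3 uncultured libraries. Fosb, an AP-1 subunit and immediate early gene, was at 0 to 3.07 FPKM in cultured and 103 to 352 FPKM in uncultured blood cells. For Irf9 they were Pkp3 (r = 0.862), Rab27b (r = 0.848) and the interferon receptor kinase Jak1 (r = 0.841).

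The other members' nearest genes were as follows. Irf7 was followed by Map3k1 (r = 0.811), Lipo1 (r = 0.805) and Bcl2l13 (r = 0.791). Isg15 was followed by Timp3 (r = 0.896), Fam131a (r = 0.877) and Ncrna00085 (r = 0.860). Stat2 was followed by Txnrd2 (r = 0.876), Gm12977 (r = 0.854) and Tor1a (r = 0.839), and Ifit2 by Zc4h2 (r = 0.857), Rpp21 (r = 0.822) and 6330578E17Rik (r = 0.802). All 21 of these likenesses had r from 0.79 to 0.97 when the uncultured LT-HSC library was left out. The genes had been picked for the highest r over the same blood libraries, so these values are no independent check. How high the best r among so many unrelated genes would be was not tested.

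The rest of the interferon pathway was described from 98 genes in lists of ligands, receptors and kinases, IRF factors, sensors, effectors, Isg15 conjugation, GTPases, chemokines and feedback. Between N and uncultured cells 71 were tested, of which 2 were higher and 7 lower, beside 5.8% higher and 3.08% lower among all genes, with a median difference of -0.18 beside 0.17 for all genes. Without the uncultured LT-HSC library 69 were tested, none was higher and 2 were lower, Ifngr1 and Ube2l6, and 2.24% of all genes passed. Between D and uncultured cells 69 were tested, 3 higher and 9 lower, beside 9.16% higher and 6.17% lower among all genes, with a median of -0.97 beside 0.23. Without the uncultured LT-HSC library 65 were tested, 1 higher and 2 lower, and 4.12% of all genes passed. Between D and N 66 were tested, 2 higher and 4 lower, beside 4.53% higher and 4.44% lower among all genes, with a median of -0.60 beside 0.02. Quantile normalization moved the median of all genes by -0.11 between N and uncultured cells and by -0.10 between D and uncultured cells.

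Among the receptors, 1 gene passed in culture. Ifngr1, the ligand-binding chain of the interferon gamma receptor, was at 19.0 to 44.8 FPKM in D and 32.7 to 110.2 FPKM in N, against 234 to 422 FPKM in uncultured blood cells. The gene fell by 2.39 in N (adjusted p = 0.00172) and fell by 3.23 in D (adjusted p = 8.26e-04) relative to uncultured cells. It stayed past the threshold in all 9 fits of each comparison that left out 1 library. The other 8 tested genes of the list did not pass between N and uncultured cells. Ifnar2, a chain of the type I receptor and the highest of the list by FPKM in all 12 cultured blood libraries, was at 37.1 to 171 FPKM in D, 78.8 to 294 FPKM in N and 172 to 187 FPKM in uncultured cells.

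Conjugation of Isg15 needs Uba7 as its activating and Ube2l6 as its conjugating enzyme. Ube2l6 was at 0 to 3.38 FPKM in D and 0 to 14.3 FPKM in N, against 9.43 to 60.3 FPKM uncultured. Its differences were -2.58 in N (adjusted p = 0.0138) and -4.31 in D (adjusted p = 0.00386). Uba7 was at 0 to 9.27 FPKM in D and 6.70 to 34.3 FPKM in N, against 19.0 to 99.3 FPKM uncultured. It fell by 1.99 in N (adjusted p = 0.0356), a call that held in 2 of 9 fits that left out 1 library, and by 4.05 in D (adjusted p = 0.00639), which held in 8 of 9. Herc6, the ligase, was tested and did not pass, and Usp18, which removes Isg15, was too low to test.

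Sensors of foreign nucleic acid moved both ways. In N relative to uncultured cells, Tmem173 (STING) rose by 2.21 (adjusted p = 0.0355) and Mavs, the adaptor of the RNA sensors, by 2.06 (adjusted p = 0.0308). Dhx58, an RNA helicase of the same pathway, fell by 2.42 (adjusted p = 0.0357). Each of these calls held in 2 or 3 of 9 fits that left out 1 library. Between D and N, Myd88, the adaptor of Toll-like receptors, fell by 1.39 (adjusted p = 0.0135), which held in all 6 fits that left out a pair. Myd88 was at 18.7 to 81.4 FPKM in D and 85.0 to 203 FPKM in N, with no overlap. The share of all genes that separate in this way was not counted. Ikbke, a kinase that activates IRF factors, fell by 2.43 (adjusted p = 0.0389), but held in 1 of 6 fits that left out a pair.

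Other IRF factors, effectors and chemokines gave few calls. Irf8, which directs monocyte and dendritic development, was at 0 to 5.61 FPKM in D and 1.10 to 189.6 FPKM in N and fell by 3.6 (adjusted p = 0.0196), which held in 4 of 6 fits that left out a pair. Irf3 was at 48.7 to 119.9 FPKM in D, 58.1 to 106 FPKM in N and 16.2 to 122 FPKM uncultured, with no call. Of 27 effectors tested between D and N, Samhd1, which depletes nucleotides, was at 65.7 to 163 FPKM in D and 29.1 to 80.8 FPKM in N and rose by 1.28 (adjusted p = 0.0169), which held in 5 of 6. Slfn2, a regulator of immune cell quiescence, was at 0 to 1.83 FPKM in D and 2.24 to 37.9 FPKM in N and fell by 3.29 (adjusted p = 0.00941), which held in all 6. With D this low, Slfn2 passed the filter mainly through the N libraries, so its p-values add no support beyond the values themselves. Of 31 effectors tested between N and uncultured cells, Isg20 fell by 1.85 (adjusted p = 0.0300) and Ifitm2 by 1.46 (adjusted p = 0.0357), held in 4 and 1 of 9 fits that left out 1 library.

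Ifitm3, which blocks viral entry, had the highest mean FPKM of the effectors over the 15 blood libraries, at 305 to 898 FPKM in D, 295 to 1075 FPKM in N and 94.0 to 789 FPKM in uncultured blood cells, and did not pass. No GTPase of the interferon gamma response passed between D and N or between N and uncultured cells. Between D and uncultured cells 7 were tested and 1, Gbp3, was lower, beside 6.17% lower among all genes. That call held in 5 of 9 fits that left out 1 library. Ifi47, the highest of these GTPases by mean FPKM over the 15 blood libraries, was at 1.02 to 110.4 FPKM in D and 28 to 96.6 FPKM in N, against 22.8 to 39.1 FPKM uncultured. Socs3, which inhibits Janus kinases, fell by 2.98 in N relative to uncultured cells (adjusted p = 0.0478), held in 2 of 9 fits that left out 1 library. The chemokine Ccl7 was at 0 to 58.6 FPKM in D and listed at 0 in all N and uncultured blood libraries. It is 1 of the genes counted as higher in D, but it entered those tests only through the D libraries, so no p is given for it. Cxcl9 and Cxcl11 are ligands of the same receptor as Cxcl10. Cxcl9 was listed at 0 in all 18 libraries, and Cxcl11 was above 0 in uncultured MP alone, at 1.19 FPKM.

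**Figure D4:**
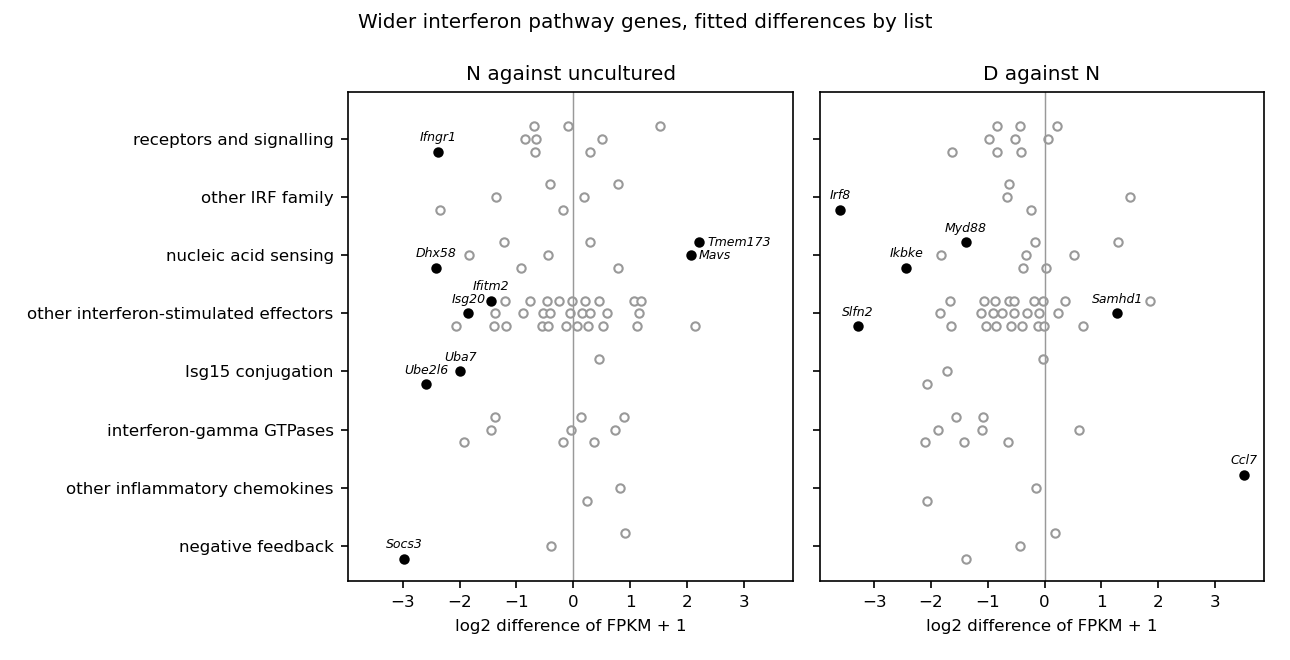
Fitted log2 differences of FPKM + 1 for the tested genes of the wider interferon pathway by list, N against uncultured on the left and D against N on the right, with 1 point per gene and filled, named points for adjusted p under 0.05. Most points are open, and Ifngr1, Ube2l6 and Uba7 are among the filled points that lie below 0 in N.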

How the data were processed

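Each library has 1 FPKM value per gene as deposited, which the authors made with TopHat and Cufflinks on mm9, per the submitters' processing notes. Their versions and settings, and which annotation was used, are left unstated by the sources used here. Low FPKM values shared no common step (at most 10 of 1500 low genes, 0.667%, had the commonest ratio between 2 libraries), so reads were not recovered and no interval that needs depth is given. The 158 symbols on several entries were summed. Of 146 list genes, 7 were matched by Ensembl ID.

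Differences were fitted with limma 3.58.1 in R 4.3.3 (lmFit, eBayes with trend and robust options) on log2(FPKM + 1), keeping genes whose mean FPKM was 1 or more. D against N had a term for each pair of cell type and day. Comparisons with uncultured cells and between days had cell type as block, and comparisons of cell types had state as block. The fits were tested on simulated data. Fibroblasts had a 4-fold rule only. Alternatives changed the added value, the filter, the scaling, the robust option, the pair term and the libraries included. Tables and figures used Python 3.11.15, pandas 2.3.3, numpy 2.4.6 and matplotlib 3.10.9.

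The 9 genes and all lists were chosen with earlier results of these data known, and the NF-kB motif was added after the promoter sequences had been seen. Named beside the 9 genes are, for each, the 3 genes with the highest Pearson r over the 15 blood libraries, and in each list up to 4 called genes with the largest change in D against N and in N against uncultured cells plus the highest gene, with the Ifit relatives and the factors. Herc6, Usp18, Gbp3, Cxcl9 and Cxcl11 were named after their values were seen. Some genes of the lists are not reported here. Correlations without the uncultured LT-HSC library were added after seeing the data.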

Additional observations from a re-analysis of the deposited data

Results flagged for a closer look

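In blood libraries of the same culture type, 14 sets of 6 values of the 9 genes were searched. The search looked for a library that stands apart from the other 5. For normally distributed values, chance alone gives about 1 such library in 20 sets. Many values here were 0, so that rate does not apply and the number found cannot be set against it. In all, 3 values stood apart. Isg15 was at 21.6 FPKM in the ST-HSC library at 2D, against 0 to 1.91 FPKM in the other 5 D libraries. Cxcl10 was at 5.90 FPKM in the MP library at 4N, the other 5 N libraries being at 0. Cxcl10 was also at 1.07 FPKM in the LT-HSC library at 4D, the other 5 D libraries being at 0. With the others at 0, any value above 0 stands apart by this measure.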

How the results depend on the processing

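Cxcl10 stayed past the threshold under all 15 alternatives both in N against uncultured cells (adjusted p 3.00e-04 to 0.0182) and in D against uncultured cells (1.60e-04 to 0.00206), as did Irf1 in D against uncultured cells (0.00317 to 0.0347). Irf1 in N against uncultured cells passed under 13 of 15, Irf7 under 1 of 15. The limit given above for the p-values of Cxcl10 applies here too. Adding 0.1 in place of 1 took the Cxcl10 differences to -9.43 in N and -9.82 in D. No other member value crossed the threshold, and 14 of 359 changed sign, all below it. Stat2 in D against uncultured cells became 0.19 with 0.1 added and 0.0060 with scaling to the 75th percentile, and leaving out 1 library gave -1.51 to 1.04. Leaving out 1 library or pair gave -0.27 to 0.72 for Stat2 and -0.49 to 0.033 for Irf9 in N against uncultured cells, -2.14 to 0.87 for Isg15 in D against uncultured cells, and -0.90 to 0.22 for Stat2 and -0.24 to 1.30 for Isg15 in D against N. The cause was not tested.

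Counts of genes past the threshold were 636 without a filter against 1072 for N against uncultured cells. For MP against stem cells they were 19 with 0.1 added and 2 without a filter, against 50. For ST-HSC against LT-HSC they were 0 with 0.1 added, no filter, a mean of at least 5 FPKM, either scaling or the robust option off, against 3. In fibroblasts 1421 genes passed 4-fold with 0.1 added, against 908. Leaving out 1 library or pair gave 529 to 1042 genes for D against N, 137 (without uncultured ST-HSC) to 1787 (without uncultured MP) for N against uncultured cells, and 512 (without uncultured LT-HSC) to 1752 for D against uncultured cells. It gave 42 to 73 for 4N against 2N, 43 to 151 for 4D against 2D, 0 to 15 for the change of D against N between days, 1 to 97 for MP against stem cells, 0 to 3 for ST-HSC against LT-HSC and 0 to 1 for D against N in MP against stem cells.

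The pairs of cell type and day are a term of the fit of D against N, and without that pair term 1095 genes passed, against 1099. Single libraries of unknown depth limit all of these values: a low gene listed at 0 may have been missed, and a p-value that misses the threshold does not show that levels were alike.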
